A study of Mus musculus with 46 samples.

Results

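Germline stem cells converted to a pluripotent state with lentiviral Oct4 and knockdown of p53 (Oct4 mGS, for multipotent germline stem cells) were compared with the germline stem cells (GS) they are made from. The samples were chosen by their titles: 6 arrays of Oct4 mGS and 6 of GS, which is 12 of the 46 arrays of the series, with 3 lines a group and 2 cultures a line. All 6 lines came from DBA/2 mice carrying a GFP transgene. GS cells are spermatogonial stem cells that were cultured on mouse embryonic fibroblasts in StemPro-34 medium with GDNF and basic FGF, and their labels name no virus. Oct4 mGS cells were grown on the same kind of feeder in DMEM with fetal bovine serum and LIF, so that the change of state and the change of medium cannot be told apart. Feeder cells were removed on gelatin before RNA was taken. The sources used here do not give the promoter of the Oct4 virus or say whether the lines were separate conversions. The other 34 arrays were of embryonic stem cells (ES), induced pluripotent stem cells (iPS), spontaneous mGS and mGS of the other induced routes. Those routes were knockdown of Dnmt1 and p53, knockdown of Dmrt1 and p53, or Sox2 and knockdown of p53. The levels of these 34 arrays are given only where they are named. They also entered the choice of probe sets and the background level given below. Their spread between lines entered the standard errors and p-values of every comparison between groups.

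Oct4, encoded by Pou5f1, is a POU-domain transcription factor that acts with Sox2 and Nanog to keep cells of the early embryo and ES cells pluripotent, often on paired SOX and octamer sites. Spermatogonial stem cells express Pou5f1 and Sox2 RNA at low levels but lack Nanog, and depend on GDNF signalling through Ret and Gfra1 and on germline factors such as Zbtb16. Pluripotent cells occur in a naive form, with Esrrb, Tfcp2l1 and Klf4, and a primed form nearer to the post-implantation epiblast, with Fgf5 and Otx2.

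Values are intensities, and group means are geometric means over the lines. Differences are log2 of Oct4 mGS over GS ± limma's standard error, with n = 3 lines a group, after the 2 cultures of each line were averaged. A gene that rose or fell passed an adjusted p of 0.05 over 19938 genes. The background level of 161 is the 95th percentile of 1027 olfactory receptor genes. Where the dimmer group lay below it, the log2 difference is a fitted value and the fold is given as a lower bound against that level. In these bulk samples fewer cells of a type and less RNA per cell cannot be told apart.

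The 6 lines were not evenly spaced. Culture 1 of Oct4 mGS 1 had an array median of 264.8 against 227.3 to 237.6 on the other 5 Oct4 mGS arrays and 228.0 to 232.7 on the 6 GS arrays. The SD over genes of the log2 difference between its 2 cultures was 0.268, against 0.125 to 0.136 for the other 2 Oct4 mGS lines. Culture 2 of Oct4 mGS 1 lay 0.142 and 0.158 from the cultures of Oct4 mGS 2, about as close as 2 cultures of a single line, while Oct4 mGS 3 lay 0.506 to 0.628 from both lines. Within GS, lines 2 and 3 lay 0.227 to 0.266 apart, against 0.144 to 0.212 between cultures of a line, and GS 1 lay 0.410 to 0.461 from both. Averaging Oct4 mGS 1 with 2 and GS 2 with 3, so that each group held 2 lines, gave 6474 genes that differed between the groups in place of 8545, and leaving out culture 1 of Oct4 mGS 1 gave 8539.

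Pou5f1, the gene supplied by the virus, was read first. Its 6 Oct4 mGS arrays read 5690.0 and 4840.0 in line 1, 4730.0 and 4569 in line 2, and 4755 and 4566 in line 3. The 6 GS arrays read 1021 and 979.6, 312 and 426, and 431 and 337. Every Oct4 mGS array was above every GS array, culture 1 of Oct4 mGS 1 was the highest, and GS 1 was above the other GS lines. The difference was 3.23 ± 0.24 (9.35-fold, adjusted p = 5.1e-09), and without that culture it was as large (3.19, adjusted p = 5.7e-09). The 9 lines of the other induced routes, whose labels name no Oct4 virus, read 4227 to 5563, and the 3 Oct4 mGS lines lay within that range (−0.05 ± 0.19, adjusted p = 0.92). Whether the probes also read the viral transcript was not stated, and the knockdown of p53 was not checked.

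Much of the transcriptome differed between Oct4 mGS and GS. Of 19938 genes, 8545 passed the test (42.9%), of which 4031 were higher (20.2% of all genes) and 4514 lower (22.6%) in Oct4 mGS. The 3 lines of a group did not overlap those of the other in 49.5% of all genes. By the fitted log2 difference, 1620 of the called genes changed beyond 2-fold upward and 1212 downward, and 46 and 44 beyond 16-fold. No floor at background was set here or in the promoter sets below, so the supported fold can be smaller. The median difference of all genes was −0.04. Counts of genes that rose or fell in the lists below are to be read beside these 20.2% and 22.6%. A count near those shares is no trait of a list.

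The highest called genes whose lines did not overlap were led by Tdgf1 and Nanog. Tdgf1, which encodes the Nodal co-receptor Cripto, read 5461, 5008 and 4442 in Oct4 mGS 1, 2 and 3 and 48.9, 56.2 and 50.4 in GS 1, 2 and 3 (6.58 ± 0.27, at least 30.7-fold higher, adjusted p = 1.5e-12). Nanog read 4046, 4031 and 5663 against 56.5, 44.9 and 41.8 (6.58 ± 0.22, at least 28.1-fold higher, adjusted p = 1.3e-13). Both were below background in all 3 GS lines and far above it in all 3 Oct4 mGS lines. Otx2, a homeobox gene of the epiblast, followed with 5.96 ± 0.39 (at least 13.5-fold higher), then the peptide ligand gene Apela with 5.44 ± 0.30 (at least 20.6-fold). Next came Lefty1, a secreted Nodal inhibitor (5.39 ± 0.94, at least 8.26-fold), the nuclear receptor gene Nr0b1 (5.18 ± 0.64, at least 8.7-fold, or 5.84 without Oct4 mGS 2 and 4.45 without Oct4 mGS 3) and L1td1, an RNA-binding protein gene of pluripotent cells (5.14 ± 0.19, at least 8.25-fold). The claudin gene Cldn6, the Nodal effector gene Foxh1, the G-protein subunit gene Gng3, the 5-methylcytosine dioxygenase gene Tet1 and the cationic amino acid transporter gene Slc7a3 completed the 12, at 5.12, 5.10, 5.02, 4.97 and 4.97. In GS all 12 had means below background.

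Among the 12 lowest were genes of the male germline. Mageb4, an X-linked germ cell gene, read 54.6, 68.5 and 72.0 against 7527, 10899 and 9403 (−7.15 ± 0.16, at least 56.9-fold lower, adjusted p = 3.7e-16). Nxf2, an X-linked RNA export factor gene, read 118, 121 and 159 against 16580.1, 15669 and 12653 (−6.82 ± 0.22, at least 92.3-fold lower). Asz1, a piRNA pathway gene, was at least 25.4-fold lower (−6.57 ± 0.35) and Zbtb16, the spermatogonial zinc finger gene also called Plzf, at least 72.3-fold lower (−6.37 ± 0.13). The germ cell RNA-binding protein gene Dazl stayed above background in Oct4 mGS, at 221, 215 and 547 against 16328, 15438 and 15426 (−5.73 ± 0.51, 53.1-fold lower, adjusted p = 5.7e-08). The 12 also held the forkhead gene Foxf1 (−5.68) and the zinc finger gene Zic1 (−5.61), which were at 12267 and 9201 in GS. The others were Tuba3b, a testis tubulin gene (−6.39), Gm773 (−5.84), Y-linked Usp9y (−5.81), X-linked Tex13b (−5.51) and Slc25a31, the germ cell ADP/ATP carrier gene (−5.44). Nxf2, Tuba3b and Mageb4 have near-identical copies whose probes may be shared.

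**Figure D1:**
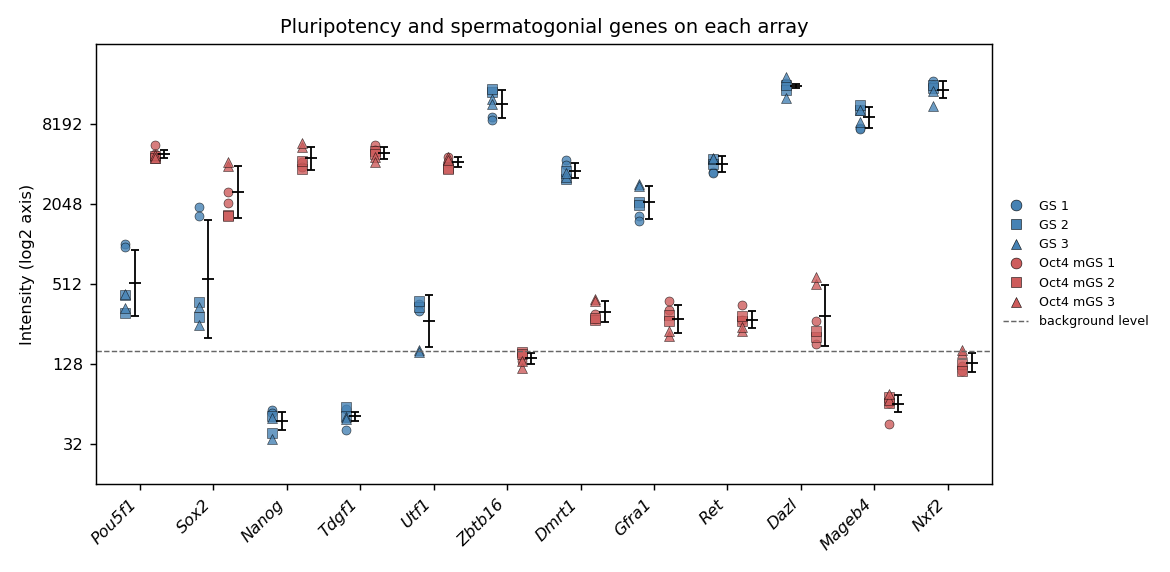
Intensity (log2 axis) on each of the 12 arrays for 12 pluripotency and spermatogonial genes, with GS in blue, Oct4 mGS in red, a symbol for each line, the geometric mean ± SD over 3 line means as black bars, and the background level of 161 dashed. The red points lie above the blue ones for Pou5f1, Nanog, Tdgf1 and Utf1 and below them for Zbtb16, Dmrt1, Gfra1, Ret, Dazl, Mageb4 and Nxf2, while for Sox2 GS 1 lies among the Oct4 mGS arrays.

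In the core pluripotency list of 11 genes, 8 rose, 0 fell and 3 did not pass, with a median difference of 2.17. Besides Nanog and Pou5f1, the FGF ligand gene Fgf4 rose from 75.9 to 1939 (4.68 ± 0.36, at least 12-fold, or 4.08 without Oct4 mGS 3) and the chromatin factor gene Utf1 from 271 to 4229 (3.97 ± 0.26, 15.6-fold). Sox2, the partner of Oct4 on DNA, read 2289, 1689 and 4095 in Oct4 mGS and 1807, 331 and 293 in GS (2.17 ± 0.45, adjusted p = 0.00079). GS 1 was above Oct4 mGS 2, so the groups overlapped, and without GS 1 the difference was larger (3.01, adjusted p = 4e-08). With only the 2 groups in the fit the call on Sox2 was lost (2.17, adjusted p = 0.057).

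The 250 bases before the RefSeq start site of Nanog (GRCm38.p6, chr6:122707239-122707488, plus strand) are shown because they hold the paired SOX and octamer letters, and those of Apela (GRCm38.p6, chr8:65037337-65037586, minus strand) because they hold the octamer letters at 2 places. Capitals mark CATTGT (SOX) and ATGCAAA (octamer) on either strand.
Nanog: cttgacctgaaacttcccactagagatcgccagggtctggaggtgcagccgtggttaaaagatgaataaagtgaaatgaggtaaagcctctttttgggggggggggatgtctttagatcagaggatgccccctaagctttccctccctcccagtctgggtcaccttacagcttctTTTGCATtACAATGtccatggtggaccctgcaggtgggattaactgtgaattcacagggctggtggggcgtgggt
Apela: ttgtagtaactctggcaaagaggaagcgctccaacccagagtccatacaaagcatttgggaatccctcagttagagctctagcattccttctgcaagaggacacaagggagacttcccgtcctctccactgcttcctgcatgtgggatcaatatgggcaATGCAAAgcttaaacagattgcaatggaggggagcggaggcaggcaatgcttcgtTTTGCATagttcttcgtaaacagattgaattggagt
In Nanog the octamer letters lie 75 to 69 bases and the SOX letters 67 to 62 bases before the start, both on the strand opposite to the gene, with 1 base between them. Among 15614 tested genes with a window, the pair with at most 1 base between occurred in 1. The octamer letters occurred in 3.74% of all windows. Among genes more than 16-fold higher by the fitted difference, they occurred in 6 of the 33 windows (18.2%), those of Nanog, Apela and Gng3 included. They occurred in 3.42% of the windows of all genes that rose and 3.33% of those of genes that fell. The median number of CpG was 6 in the 33 windows and 11 in all windows. A match is a description of these letters and does not show binding.

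Naive pluripotency genes rose less evenly. Of 25 measured, 15 rose, 2 fell and 8 did not pass, and the median difference was 2.22. Besides Nr0b1 and L1td1, the adhesion molecule gene Jam2 rose from 65.8 to 1077 (4.03 ± 0.51). The defining genes did not all move. Esrrb, an orphan nuclear receptor gene of the naive state, read 464, 271 and 2770.2 against 96.8, 172 and 119 (2.48 ± 0.72, adjusted p = 0.0094), and its call was lost without Oct4 mGS 3 (1.50, adjusted p = 0.064) and was 3.17 without Oct4 mGS 2. Tfcp2l1 read 415, 294 and 2329 against 519.9, 438 and 391 (adjusted p = 0.53) and Klf4 759, 475 and 1810.3 against 774, 432 and 399.7 (adjusted p = 0.18), which passed without Oct4 mGS 2 (1.20, adjusted p = 0.046). In all 3 genes Oct4 mGS 3 was the highest of the 6 lines. The 2 members that fell, the nuclear receptor gene Nr5a2 (−1.71 ± 0.66, adjusted p = 0.044) and Morc1, a germ cell gene also expressed in ES cells (−1.70 ± 0.64, adjusted p = 0.04), were expressed in GS at 1301 and 1904. Both calls were lost without GS 2, GS 3, Oct4 mGS 1 or Oct4 mGS 2, at −1.63 to −1.13 for Nr5a2 and −1.61 to −1.0 for Morc1, while without Oct4 mGS 3 both differences were larger (−2.44, adjusted p = 0.0053 and −2.50, adjusted p = 0.0026).

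**Figure D2:**
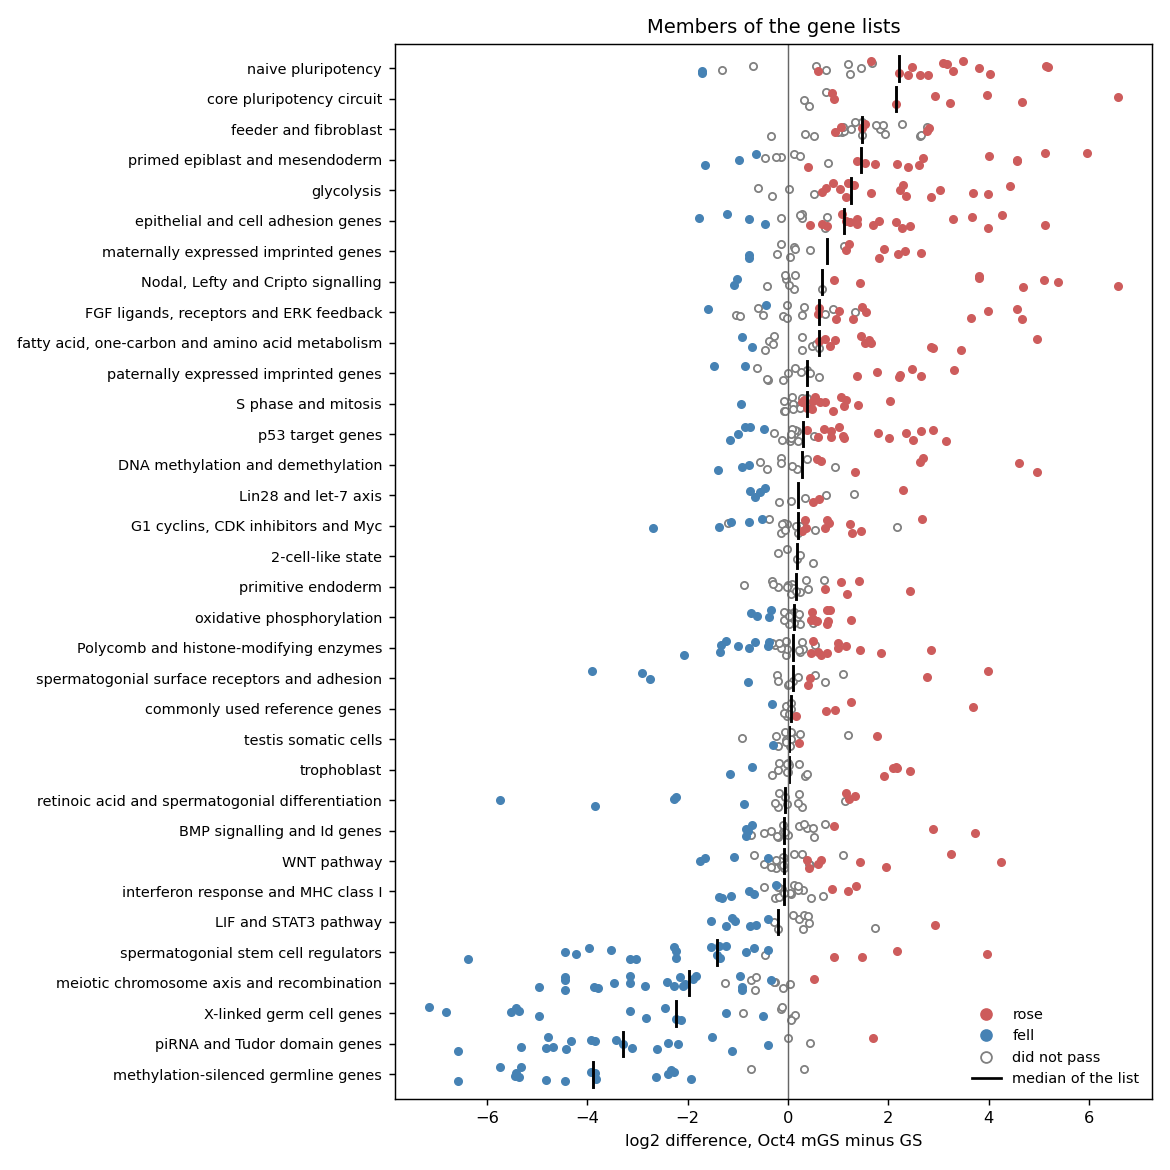
Log2 difference (Oct4 mGS minus GS) of each measured member of 34 gene lists, 1 point a gene, with genes that rose in red, genes that fell in blue, genes that did not pass open, and the median of a list as a black bar. The core and naive pluripotency lists lie to the right. The piRNA, meiotic, X-linked, methylation-silenced and spermatogonial regulator lists lie to the left, while the spermatogonial surface receptor list and the retinoic acid and differentiation list have medians of 0.09 and −0.05.

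Spermatogonial programmes were mostly lower. Of 23 regulators of spermatogonial stem cells, 18 fell, 4 rose and 1 did not pass, with a median of −1.42. Dmrt1, a DM-domain transcription factor gene of the testis, read 292, 279.7 and 389 against 4219.5, 3400.2 and 3379 (−3.53 ± 0.42, adjusted p = 2.2e-06). The germ cell helix-loop-helix gene Sohlh2 fell by 4.44 ± 0.50 on the log2 scale, with 267 left in Oct4 mGS 3 and the other lines below background, and its difference without Oct4 mGS 3 was −5.11. The RNA-binding protein gene Nanos3 fell by 4.23 ± 0.17, to below background in all 3 lines. Id4, which marks stem cells among spermatogonia, had a smaller difference of −0.82 ± 0.28 (369.6 against 654, adjusted p = 0.023), a call lost without GS 2, GS 3, Oct4 mGS 1 or Oct4 mGS 2 (−0.84 to −0.76). The 4 that rose are shared with pluripotent or epiblast cells: Utf1, the zinc finger gene Sall4 (0.91 ± 0.11), the ETS gene Etv5 (1.47 ± 0.32) and the T-box gene Eomes (2.17 ± 0.66). Etv5 was 484, 1864 and 1765 in GS, and without GS 1 its difference was smaller (0.83, adjusted p = 6.2e-05). Eomes was below background in Oct4 mGS 3. Its call was lost without Oct4 mGS 1 (1.66, adjusted p = 0.08) or 2 (1.47, adjusted p = 0.092), and its difference was 3.37 without Oct4 mGS 3.

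Of 17 surface receptors and adhesion genes used to identify spermatogonia, 4 rose, 4 fell and 9 did not pass. Both counts were near the shares of all genes (20.2% rose and 22.6% fell). Ret, the GDNF receptor tyrosine kinase, read 314, 282 and 235 against 3519, 4280.3 and 4530.5 (−3.89 ± 0.18, 14.9-fold lower, adjusted p = 8.6e-12), and its co-receptor gene Gfra1 read 353, 283 and 218 against 1593, 2069.6 and 2835 (−2.92 ± 0.25, adjusted p = 3.2e-08). The adhesion molecule gene Mcam fell too (−2.74 ± 0.36). Those that rose included Cdh1, the E-cadherin gene (4136 against 260.4, 3.99 ± 0.21, adjusted p = 5.9e-11), and Thy1 (2145 against 312, 2.78 ± 0.71, or 3.43 without GS 1), which is also a fibroblast gene. Itga6, which encodes an integrin subunit, rose by little (0.44 ± 0.14, adjusted p = 0.016), and its call was lost without GS 1 (0.37, adjusted p = 0.067) or Oct4 mGS 3 (0.28, adjusted p = 0.1).

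Retinoic acid drives spermatogonial differentiation, and the 17 genes of this list split into 3 that rose, 5 that fell and 9 that did not pass. Of all genes, 20.2% rose and 22.6% fell. Besides Dazl, the germ cell helicase gene Ddx4 fell from 4818 to 334 (−3.85 ± 0.27, adjusted p = 2.9e-09) and the helix-loop-helix gene Sohlh1 fell to below background (−2.26 ± 0.15). Stra8, the gatekeeper of meiotic entry, fell from a level already near background (114 against 209, −0.87 ± 0.17, adjusted p = 0.0005). The 3 that rose handle retinoids: Rdh10 (1.17 ± 0.15) and Dhrs3 (1.33 ± 0.32), which interconvert retinol and retinal, and the carrier gene Crabp2 (1.21 ± 0.38), which read 759, 211 and 181 in GS and lost its call without GS 2 (0.94, adjusted p = 0.089) or GS 3 (0.83, adjusted p = 0.11) and was 1.87 without GS 1.

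The piRNA and Tudor domain genes, which silence transposons in germ cells, fell together: 18 of 21 fell, 1 rose and 2 did not pass, with a median of −3.28. The Piwi gene Piwil2 read 148, 151 and 261 against 3941, 4338 and 3374 (−4.42 ± 0.23, adjusted p = 5.1e-11), Tdrd1 read 92.2, 112 and 84.5 against 4744, 4245 and 2773 (−5.32 ± 0.17, at least 23.7-fold lower) and the helicase gene Mov10l1 123, 145 and 246 against 4165, 5297 and 4429 (−4.81 ± 0.31). In all 3 genes no Oct4 mGS line came within 10-fold of a GS line. The member that rose was Mybl1 (654 against 203, 1.69 ± 0.27, adjusted p = 5.2e-05), the A-Myb gene, a transcription factor gene that activates piRNA loci in meiotic cells.

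Of 30 genes of meiotic chromosome axes and recombination, 21 fell, 1 rose and 8 did not pass (median −1.97), and several that fell were high in GS. Tex11 read 102, 88.7 and 102 against 3640.0, 2760.4 and 2811 (−4.97 ± 0.21, at least 18.9-fold lower). Sycp1, a gene of the synaptonemal complex, read 99.2, 106 and 175 against 2784, 2882 and 2389 (−4.45 ± 0.24, at least 16.6-fold lower). Tex12 read 43.3, 45.9 and 72.9 against 1303, 1216 and 944 (−4.44 ± 0.34, at least 7.1-fold lower). The axis gene Sycp3 was lower in GS itself, at 430.4 (−2.27 ± 0.59, adjusted p = 0.0046). Dmc1, the meiotic recombinase gene, read 362 against 569.8 and did not pass (adjusted p = 0.091), though it did without Oct4 mGS 3 (−0.94, adjusted p = 0.021). The mismatch repair gene Mlh3 was the member that rose (0.53 ± 0.20, adjusted p = 0.039), and its call was lost without culture 1 of Oct4 mGS 1 (0.50, adjusted p = 0.054) or without GS 1, 2 or 3 or Oct4 mGS 1 or 3, at 0.33 to 0.59.

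X-linked germ cell genes gave 13 of 19 that fell, 0 that rose and 6 that did not pass (median −2.24). Taf7l, a germ cell subunit of the general transcription machinery, read 96.5, 110.5 and 118 against 4335, 4820.4 and 4121 (−5.35 ± 0.14, at least 27.4-fold lower, adjusted p = 3.3e-15). A further list held 18 germline genes whose promoters are known to be methylated outside the germline, some of which also belong to the lists above. Of these, 16 fell, 0 rose and 2 did not pass (median −3.89). Mael, a piRNA pathway gene of this list, stayed well above background in Oct4 mGS, at 1005, 1204 and 2524 against 7115, 8153 and 7455 (−2.38 ± 0.35, adjusted p = 2e-05).

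Promoter letters were also counted for the germline genes. The letters CACGTG are the palindromic E-box bound by Myc, Max and Mga proteins. They were found in 11 of 37 windows of genes more than 16-fold lower by the fitted difference (29.7%). They occurred in 0 of 33 windows of genes more than 16-fold higher, and in 7.03% of all 15614 windows. They were found in 10 of the 18 methylation-silenced germline genes (55.6%) and in 7 of 17 windows of the piRNA list (41.2%). These lists overlap each other and the 16-fold lower set, so the counts are not separate. Mov10l1 and Tdrd1, which hold the letters, belong to each of them. Among all genes that fell the share was 9.50%, and among all that rose 7.48%. The median number of CpG was 11 in the windows of genes more than 16-fold lower, 15.5 in those of the 18 germline genes and 11 in all. The windows of Mov10l1 (GRCm38.p6, chr15:88982744-88982993, plus strand), Slc25a31 (chr3:40708621-40708870, plus strand) and Taf7l (chrX:134476491-134476740, minus strand) are shown as examples on 3 chromosomes, with CACGTG in capitals.
Mov10l1: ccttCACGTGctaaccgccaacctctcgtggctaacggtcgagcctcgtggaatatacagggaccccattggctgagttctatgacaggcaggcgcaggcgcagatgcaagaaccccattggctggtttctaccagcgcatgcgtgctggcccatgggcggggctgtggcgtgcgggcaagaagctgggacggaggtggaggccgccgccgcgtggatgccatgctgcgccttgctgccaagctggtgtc
Slc25a31: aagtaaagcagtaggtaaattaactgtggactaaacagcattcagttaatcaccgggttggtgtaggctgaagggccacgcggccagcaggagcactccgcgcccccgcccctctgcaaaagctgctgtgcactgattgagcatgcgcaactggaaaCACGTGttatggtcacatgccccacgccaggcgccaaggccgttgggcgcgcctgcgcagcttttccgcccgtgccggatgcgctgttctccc
Taf7l: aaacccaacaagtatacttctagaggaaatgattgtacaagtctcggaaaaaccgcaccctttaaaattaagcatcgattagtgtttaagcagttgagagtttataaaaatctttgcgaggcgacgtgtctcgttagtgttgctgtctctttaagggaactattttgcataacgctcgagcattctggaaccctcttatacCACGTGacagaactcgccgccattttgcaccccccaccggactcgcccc
The letters end 241 bases before the start in Mov10l1, 88 in Slc25a31 and 44 in Taf7l. Tdrd1, Sycp1, Mael, Ddx4, Nxf2, Tex12 and Sycp3 hold them as well. The windows of Dazl, Asz1 and Mageb4, which also fell, hold no such letters.

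Nodal signalling keeps the epiblast pluripotent, and of 17 genes of the pathway 8 rose, 2 fell and 7 did not pass (median 0.69). The ligand gene Nodal read 1462, 1460.1 and 899 against 71.1, 62.4 and 154 (3.82 ± 0.31, at least 7.71-fold higher, adjusted p = 2e-08), so that ligand, co-receptor Tdgf1, inhibitor Lefty1 and effector Foxh1 were all higher. The signal transducer gene Smad3 was among the 2 that fell (619.9 against 1307, −1.08 ± 0.19). Of 22 genes of BMP signalling, 3 rose and 4 fell, or 2 and 2 without Oct4 mGS 1. Neither count exceeded the share of all genes (20.2% rose and 22.6% fell). The ligand gene Bmp4 rose (1055 against 142, 2.89 ± 0.49) and so did Id2 (1532 against 116, 3.72 ± 0.55), an inhibitor of differentiation, by 4.53 without GS 1, while the BMP targets Id1 (0.51, adjusted p = 0.55) and Id3 (0.31, adjusted p = 0.76) did not pass.

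Of 25 genes of FGF and ERK signalling, 11 rose, 2 fell and 12 did not pass (median 0.62). The ligand genes Fgf4 and Fgf5 rose, as did the ETS gene Etv1 (3.99 ± 0.40). The receptor gene Fgfr1 read 1704 against 1735 (adjusted p = 0.94). Among feedback genes, the phosphatase gene Dusp5 fell (−1.59 ± 0.25), while Dusp6 (−1.03, adjusted p = 0.25) and Spry4 (−0.49, adjusted p = 0.72) did not pass and were lower in GS 1 than in the other GS lines.

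LIF acts through Lifr and gp130 (Il6st) on Jak1 and Stat3, and 1 of 17 genes of the pathway rose, 7 fell and 9 did not pass. Stat3 itself was lower in Oct4 mGS, at 1485, 1369 and 1469 against 3031, 3013 and 2913 (−1.05 ± 0.16, adjusted p = 3e-05), and Jak1 was 1429 against 4158 (−1.54 ± 0.14). The receptor genes Lifr (−0.27, adjusted p = 0.47) and Il6st (0.33, adjusted p = 0.067) and the STAT3 target Socs3 (0.11, adjusted p = 0.8) did not pass. Lifr did so without Oct4 mGS 3 (−0.68, adjusted p = 0.029), and Il6st without GS 1 (0.47, adjusted p = 0.013) or Oct4 mGS 2 (0.41, adjusted p = 0.048). The suppressor of cytokine signalling gene Socs2 rose (3147 against 411, 2.94 ± 0.23, adjusted p = 1.2e-08), and without GS 1 the genes that rose numbered 4.

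Of 28 WNT pathway genes, 8 rose, 4 fell and 16 did not pass, beside 20.2% higher and 22.6% lower of all genes. Tcf7l1, a repressor of WNT targets, rose most (2209.7 against 116, 4.25 ± 0.25, at least 13.7-fold), followed by the receptor gene Lgr5 (3.24 ± 0.61), which differed widely among the Oct4 mGS lines and stood at 4.24 without Oct4 mGS 3 and 2.66 without Oct4 mGS 1. The frizzled gene Fzd5 rose (1.95 ± 0.31) and Fzd3 fell (−1.74 ± 0.26). Wnt3 was lower (−1.66 ± 0.44), by −0.96 without Oct4 mGS 3. The WNT target Axin2 rose by little (0.60 ± 0.22, adjusted p = 0.035) and lost its call without GS 2 or 3 or Oct4 mGS 1 or 2, at 0.48 to 0.56. Leaving out GS 2 left 5 genes that rose, and quantile normalization gave 7 that fell.

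DNA methylation is reset in the germline, and of 18 genes that write, read or remove it 7 rose, 3 fell and 8 did not pass (median 0.28). Dnmt3l, the cofactor of de novo methylation, read 2968, 1946 and 3600.0 against 134, 140.2 and 77.9 (4.60 ± 0.29, at least 17.1-fold higher, adjusted p = 7.5e-10). Tet1 read 4413, 3493 and 5273 against 147, 175 and 102, and Tet3, which belongs to the same family, fell (321 against 604, −0.91 ± 0.12). Dnmt3b, a de novo methyltransferase gene, read 4139, 3581 and 1679.8 against 526, 474 and 366 (2.70 ± 0.52, adjusted p = 0.00038). The maintenance enzyme gene Dnmt1 read 2059 against 3031 and did not pass (−0.56, adjusted p = 0.21), although its lines did not overlap. With only the 2 groups in the fit Dnmt1 passed (−0.56, adjusted p = 0.0039). The same held with the line number as a replicate block (adjusted p = 0.015), arrays as independent samples (adjusted p = 0.034) or line as a random block (adjusted p = 0.048).

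Polycomb and histone-modifying enzymes moved in both directions: 11 of 32 rose, 9 fell and 12 did not pass. Ezh2, the catalytic subunit of PRC2, rose 2.01-fold (4227, 4009 and 4468 against 2097, 1938 and 2295, 1.01 ± 0.08, adjusted p = 1.2e-08). Within PRC1 the chromodomain gene Cbx7 rose (1460.3 against 539, 1.44 ± 0.12) while Cbx2 (841 against 2119, −1.33 ± 0.12) and Bmi1 (349 against 1457, −2.06 ± 0.23) fell. The demethylase gene Kdm4c rose most (993 against 138, 2.85 ± 0.15), followed by Epop, a PRC2-associated gene (1.86 ± 0.19), and Kdm6b fell (−1.34 ± 0.18). The arginine methyltransferase gene Prmt5 rose (0.50 ± 0.10), and the demethylase gene Kdm5b read 2803 against 2857 (adjusted p = 0.83).

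Known target genes of p53, whose knockdown was part of the route, moved in both directions: 15 of 32 rose, 5 fell and 12 did not pass, with a median of 0.29. Those that rose most were Psrc1 (1694 against 191, 3.15 ± 0.36), the zinc finger gene Zmat3 (872 against 117, 2.89 ± 0.28) and the adenylate kinase gene Ak1 (1276 against 202, 2.66 ± 0.42, or 3.43 without GS 1). The cyclin gene Ccng1 rose (5219 against 2415, 1.11 ± 0.31, adjusted p = 0.0072). Mdm2, the p53 ubiquitin ligase gene, was lower at 2169, 1635 and 1127 against 2521, 2783 and 2725 (−0.75 ± 0.26, adjusted p = 0.024), a call lost without Oct4 mGS 3 (−0.51, adjusted p = 0.13), GS 2 (−0.72, adjusted p = 0.065) or GS 3 (−0.74, adjusted p = 0.06). The repair genes Xpc (−1.15 ± 0.12) and Ddb2 (216 against 433) and the stress gene Sesn1 (−0.85 ± 0.19) also fell, and 3 members fell without GS 2, GS 3 or Oct4 mGS 3. Of the 12 members whose levels differed among GS lines, 12 were highest in GS 1.

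Glycolytic genes rose together. Of 20 measured, 16 rose, 0 fell and 4 did not pass, with a median of 1.27. The phosphofructokinase gene Pfkl read 2473, 2275 and 1776 against 185, 79.4 and 68.8 (4.42 ± 0.34, at least 13.4-fold higher, adjusted p = 9.7e-09), the lactate transporter gene Slc16a3 3347, 3191 and 2055 against 312, 139 and 124 (4.00 ± 0.49) and the phosphoglycerate kinase gene Pgk1 6789, 6460.1 and 5891 against 1161, 324 and 319 (3.69 ± 0.32, or 4.31 without GS 1). In each the Oct4 mGS lines stood clear of GS, with GS 1 the highest of the GS lines. Lactate dehydrogenase A, Ldha, read 9571, 9679 and 8717 against 1815, 2206 and 1684 (2.30 ± 0.10, adjusted p = 6.8e-12), and the hexokinase gene Hk2 1232 against 854 (adjusted p = 0.062), which passed without GS 2 (0.82, adjusted p = 0.0035) or Oct4 mGS 2 (0.69, adjusted p = 0.028). Of 29 genes of oxidative phosphorylation, 10 rose, 4 fell and 15 did not pass, with a median of 0.13. The complex I gene Ndufa1 (1.25 ± 0.17) and the complex II gene Sdhd (0.84 ± 0.13) rose, and the complex I gene Ndufv1 (−0.74 ± 0.12) and the complex IV gene Cox4i1 (−0.61 ± 0.15) fell. Of 23 genes of fatty acid, one-carbon and amino acid metabolism, 12 rose, 2 fell (4 without GS 1) and 9 did not pass. Besides Slc7a3, the amino acid transporter gene Slc7a7 (3.44 ± 0.56), the mitochondrial folate enzyme gene Mthfd1l (2.90 ± 0.15) and the glycine decarboxylase gene Gldc (1933 against 268, 2.85 ± 0.19) rose, and glutamine synthetase, Glul (−0.91 ± 0.20), and the cytosolic folate enzyme gene Shmt1 (−0.72 ± 0.17) fell.

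Of 27 G1 cyclins, CDK inhibitors and Myc genes, 10 rose, 5 fell and 12 did not pass. Cyclin E1, Ccne1, read 3556, 3119 and 3638 against 431, 582 and 609 (2.68 ± 0.16, 6.42-fold, adjusted p = 4e-10), and the retinoblastoma gene Rb1 read 486, 349.7 and 304 against 2376, 2467 and 2399 (−2.70 ± 0.28, adjusted p = 3.9e-07). Cdkn2a, the gene of the cell cycle inhibitors p16 and p19Arf, fell (174 against 449, −1.37 ± 0.16), as did the Myc antagonist gene Mxd4 (−1.14 ± 0.17), while the CDK inhibitor gene Cdkn1b (1614 against 589, 1.46 ± 0.19) and Ccnd1 (1.27 ± 0.32) rose. Mycn rose (0.82 ± 0.23). Myc read 1039, 919 and 228 against 227, 107 and 96.2 and Ccnd2 2987, 2385 and 997 against 3381, 4632 and 5505, and neither passed (adjusted p = 0.1 and 0.30), with Oct4 mGS 3 the lowest of its group in both. Myc passed without Oct4 mGS 3 (2.88, adjusted p = 0.049). Of 27 genes of S phase and mitosis, 14 rose, 1 fell and 12 did not pass (median 0.38). The ribonucleotide reductase gene Rrm2 (2.04 ± 0.19), the mitotic kinase gene Plk1 (1.39 ± 0.13) and Cdk1 (1.15 ± 0.12) rose, the replication factor gene Cdc45 fell (−0.94 ± 0.19), and Mki67, a marker of proliferation, read 2704 against 2507 (adjusted p = 0.5).

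Epithelial and cell adhesion genes gave 18 of 28 that rose, 4 that fell and 6 that did not pass (median 1.12). The claudin genes Cldn6 (3056 against 88.1) and Cldn7 (705 against 36.8, 4.26 ± 0.65) rose, while the tight junction genes Ocln (−1.77 ± 0.37), F11r (−1.21 ± 0.12) and Tjp1 (−0.77 ± 0.14) fell. Epcam, an epithelial adhesion gene present in both cell types, read 2467 against 1471 (adjusted p = 0.22). In the Lin28 and let-7 list of 12 genes, 3 rose and 4 fell, beside 20.2% and 22.6% of all genes. Igf2bp3, an RNA-binding protein gene, rose most (2.29 ± 0.26), Trim71 fell (−0.76 ± 0.16), and Lin28a (0.76, adjusted p = 0.1) and Lin28b (0.06, adjusted p = 0.9) did not pass.

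Genes of other lineages were measured to see what else the converted cells express. Of 22 primed epiblast and mesendoderm genes, 13 rose, 3 fell and 6 did not pass (median 1.46). Otx2 read 2585, 2751 and 1452, above the ES and iPS range of 666 to 1568 in lines 1 and 2 and within it in line 3. Fgf5, a marker of the primed epiblast, rose on average (4.58 ± 1.12, adjusted p = 0.0027) but lay below background in Oct4 mGS 3. Its difference was 6.06 without that line, 3.87 without Oct4 mGS 1 and 3.80 without Oct4 mGS 2. Beside 20.2% of all genes that rose and 22.6% that fell, 5 of 19 primitive endoderm genes rose, 0 fell and 14 did not pass. With merged lines 2 rose. Gata4 (229 against 194, adjusted p = 0.25) and Sox17 (82.7 against 82.2, adjusted p = 0.97), which define that lineage, did not pass, though Sox17, below background, did without Oct4 mGS 1 (0.28, adjusted p = 0.033), and Gata6 read 305 against 146 (1.06 ± 0.34, adjusted p = 0.017), a call lost without GS 2 (0.81, adjusted p = 0.097) or Oct4 mGS 2 (0.85, adjusted p = 0.083). Dab2 (2.43 ± 0.70) and Sparc (1.42 ± 0.31), which fibroblasts also express, were among those that rose. Of 18 trophoblast genes, 5 rose and 2 fell, beside the same shares of all genes. With merged lines 3 rose, 0 fell without Oct4 mGS 1 or with only the groups compared, and 1 fell without GS 1, GS 2 or Oct4 mGS 2. The defining genes Cdx2 (133 against 133) and Elf5 (98.0 against 97.2) were below background in both groups, Hand1 (186 against 184) was near it, and the keratin genes Krt18 (2.43 ± 0.51) and Krt8 (2.15 ± 0.58) rose. None of the 5 genes of the 2-cell-like state passed, and the means of all 5 were below background.

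Imprinted genes, whose marks are erased and reset in the germline, rose more often than they fell on both parental lists: 7 rose and 2 fell of 19 paternally expressed genes (median 0.39), and 7 rose and 2 fell of 16 maternally expressed genes (median 0.78). With Oct4 mGS 1 and 2, and GS 2 and 3, merged, 4 rose on each list. Peg3 read 4661, 4457 and 4300.3 against 612, 369 and 409 (3.31 ± 0.32, adjusted p = 1.5e-07) and Peg10 6692, 5351 and 5329 against 1693, 1184 and 925 (2.23 ± 0.67, adjusted p = 0.011). Meg3, a maternally expressed noncoding RNA, read 2431, 2664 and 988 against 693, 181 and 203 (2.66 ± 0.51, adjusted p = 0.00036, or 3.28 without GS 1), with Rian, from the same locus, at 758, 743 and 155 against 94.6, 105 and 93.5 (2.19 ± 0.57, or 2.94 without Oct4 mGS 3). For Meg3, GS 1 came closest to Oct4 mGS, at 693 against 988 in line 3. The growth regulator gene Grb10 rose (2.34 ± 0.62), Cdkn1c fell (261 against 447, −0.78 ± 0.15), and Igf2 (0.39, adjusted p = 0.71), Dlk1 (−0.39, adjusted p = 0.61) and Igf2r (0.05, adjusted p = 0.88) did not pass.

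Of 23 genes of the interferon response and MHC class I, 3 rose, 6 fell and 14 did not pass. Over all genes 20.2% rose and 22.6% fell. The membrane genes Ifitm2 (5089.6 against 1989, 1.36 ± 0.16) and Ifitm3 (4272 against 1867, 1.19 ± 0.20), which germ cells and ES cells also express, rose, and the transcription factor gene Irf1 (832 against 2159, −1.38 ± 0.25) and the antigen-loading gene Tapbp (856 against 2137, −1.32 ± 0.17) fell. Among 12 genes often used as references for measurement, 5 rose and 1 fell. Actb read 12455 against 12626 (adjusted p = 0.8) and Ppia 7672 against 7369 (adjusted p = 0.44), whereas Hprt was 2.4-fold higher (1.26 ± 0.09, adjusted p = 3.7e-09), Pgk1 12.9-fold higher, and Tbp lower (−0.32 ± 0.08).

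Fibroblast genes were counted because both cell types grow on feeders. Of 25 genes, with a median of 1.48, 6 rose, 0 fell and 19 did not pass, beside 20.2% higher and 22.6% lower of all genes. This count depended on the fit. With fewer lines the number that rose was 1 with merged lines, 2 without GS 3 or Oct4 mGS 1, 3 without GS 2 or Oct4 mGS 2, 10 without Oct4 mGS 3 and 12 without GS 1. With all lines it was 2 with a floor at background, 13 with only the groups compared, 18 with the line number or the culture number as a replicate block, and 19 with line as a random block or arrays as independent samples. The summed level of the list was 35186, 14198 and 12563 in GS 1, 2 and 3 and 63657, 52823 and 35165 in Oct4 mGS 1, 2 and 3, so that GS 1 and Oct4 mGS 3 had nearly the same sum. Of the 25 genes, 2, 7 and 10 lay below background in the GS lines and 1, 1 and 2 in the Oct4 mGS lines. The collagen gene Col1a1 read 2817, 2221 and 1456 against 1287, 1032 and 737 (1.07 ± 0.58, adjusted p = 0.15) and Lum, a fibroblast proteoglycan gene, 934, 663 and 276 against 143, 63.1 and 54.7 (2.81 ± 0.87, adjusted p = 0.014), a call lost without GS 3 (2.54, adjusted p = 0.054) or Oct4 mGS 1 (2.44, adjusted p = 0.061). These levels ran from GS 2 and 3, through GS 1 and Oct4 mGS 3, to Oct4 mGS 1 and 2, and their part in the other differences was not tested. Of 16 genes of testis somatic cells, 2 rose, 1 fell and 13 did not pass, and with any of GS 2, GS 3 or Oct4 mGS 1 left out 1 rose. Neither count exceeded the share of all genes (20.2% rose and 22.6% fell). The Sertoli cell gene Sox9 read 454 against 534 (adjusted p = 0.42), Wt1 289 against 542 (adjusted p = 0.32), and the Leydig cell gene Cyp17a1 was below background in both groups (79.2 against 82.2).

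The 3 Oct4 mGS lines were then compared with each other, with the 2 cultures of a line as replicates, so that the p-values measure the spread between cultures. By limma's moderated F test 4486 genes differed (22.5% of 19938), and the number moved with single cultures. It was 6592 without culture 1 and 12328 without culture 2 of Oct4 mGS 1, 2587 and 2259 without culture 1 or 2 of Oct4 mGS 3, and 614 with a floor at background. Of the 4486, Oct4 mGS 3 was the highest line in 1616, the lowest in 2796 and in between in 74. In the naive pluripotency list 22 of 25 genes differed among the lines, and Oct4 mGS 3 was the highest in 18 of them and the lowest in 2. In the primed list 18 of 22 differed, and Oct4 mGS 3 was the lowest in 17 and the highest in 1. Its median difference from the mean of lines 1 and 2 was 1.27 over the naive list and −1.09 over the primed list, against 0.00 over all genes.

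Tcl1, an Akt co-activator gene of ES cells, read 175, 119 and 1788 in lines 1, 2 and 3 (adjusted p = 7.6e-09), against 395 to 1587 in ES and iPS lines. Esrrb was within the ES and iPS range of 1558 to 2957 in line 3 and below it in lines 1 and 2, and so was Tfcp2l1, with a range of 1349 to 2387. Fgf4 (1472, 1123 and 4411), Nr0b1 (1267, 562 and 3877) and Morc1 (515, 219.8 and 1767) were likewise highest in line 3. These 6 genes share the order of line 3, then line 1, then line 2.

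Fgf5 read 2336, 2586 and 113 (adjusted p = 1e-08) against 70.9 to 649 in ES and iPS lines, so that lines 1 and 2 lay above that range and line 3 within it. Eomes read 1272, 1673 and 119 (adjusted p = 1.8e-08), the WNT receptor gene Lgr5 3270.3, 2612 and 368 (adjusted p = 2.7e-08), and the keratin gene Krt8 1846, 1979 and 616 (adjusted p = 3.5e-06). In each of these, lines 1 and 2 lay close together and line 3 was the lowest. Pou5f1 (adjusted p = 0.57) and Utf1 (adjusted p = 0.38) did not pass this test, and Nanog, at 4046, 4031 and 5663, passed with line 3 the highest (adjusted p = 0.028).

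**Figure D3:**
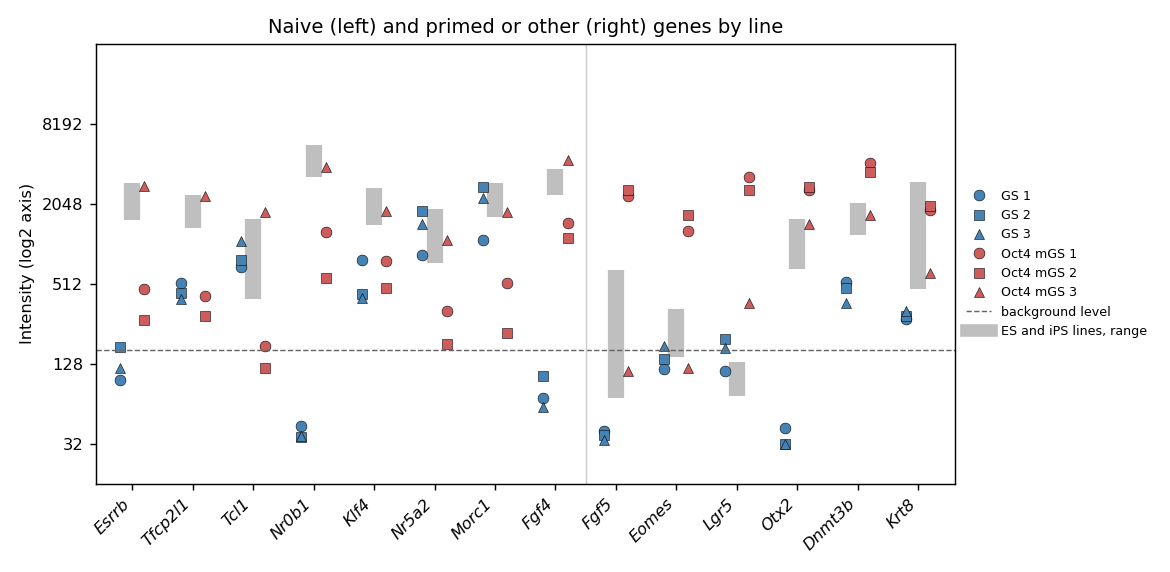
Intensity (log2 axis) of 8 naive or core genes (left of the vertical line) and 6 primed or other genes (right) as line means, with GS in blue, Oct4 mGS in red, a symbol for each line, the range of 6 ES and iPS lines as grey bars, and the background level dashed. Oct4 mGS 3 (red triangles) lies in or near the grey bars for the naive genes, and for Fgf5, Eomes and Lgr5 it lies nearer to GS while lines 1 and 2 lie well above.

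Feeder genes moved with this split. Of the 25, 23 differed among the Oct4 mGS lines and Oct4 mGS 3 was the lowest in all 23, with a median of −0.91 against the mean of lines 1 and 2. GS 1, with a feeder sum of 35186, read 39.7 for Fgf5 and 117 for Eomes, both below background. The part of feeder RNA in the levels of the primed genes was not tested. GS 1 cannot test it, because its cell type and medium differ from those of Oct4 mGS. The germline lists were split. Of 18 methylation-silenced germline genes, 11 differed among the lines and Oct4 mGS 3 was the highest in 10, among them Dazl (adjusted p = 9e-05) and Mael (adjusted p = 4.6e-05). It was the highest in 13 of 17 meiotic genes that differed, in 8 of 12 piRNA genes and in both X-linked germ cell genes. Among spermatogonial regulators it was instead the lowest in 5 of 7, among retinoic acid and differentiation genes the lowest in 5 of 7, and among surface receptors the highest in 4 and the lowest in 5 of 9.

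Y-linked genes split the lines in the same way. This list of 8 was chosen after Zfy1 and Uty had been seen among the genes with the widest range, and 5 of 8 differed. The zinc finger gene Zfy1 read 34.5, 22.8 and 929 (adjusted p = 2.6e-09) against 277, 285 and 298 in GS, the demethylase gene Uty 88.6, 57.4 and 821 against 477, 609 and 607, and the translation factor gene Eif2s3y 160.1, 107 and 1328 against 1022, 739 and 798. Oct4 mGS 3 stood above all GS lines in these 3 genes, and in Oct4 mGS 1 and 2 they lay below background. Such low levels were not particular to lines 1 and 2. The other induced routes read 19.2 to 322 for Zfy1, 28.8 to 512 for Uty and 27.6 to 733 for Eif2s3y, with means of 42.1, 91.0 and 146. Sry (676, 676 and 622) and Uba1y (376, 392 and 507) did not pass the F test among Oct4 mGS lines (adjusted p = 0.80 and 0.069). Kdm5d, a demethylase gene, read 162, 178 and 780.0 against 1251, 1498 and 1410.2. Probes of Zfy1 and Zfy2, and of Uty and its X-linked relative, may be shared. Usp9y was below background in all 3 Oct4 mGS lines (73.9, 53.5 and 67.7) against 3939, 3466 and 3497 in GS, and also in the ES and iPS lines (51.9 to 65.2), so it does not follow that split.

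**Figure D4:**
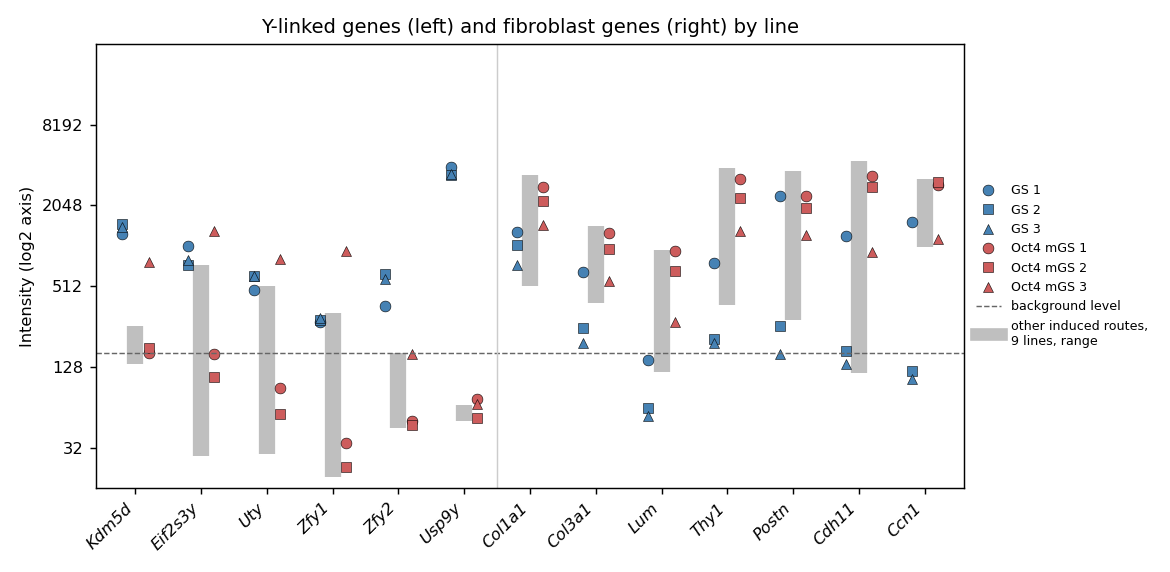
Intensity (log2 axis) of 6 Y-linked genes (left of the vertical line) and 7 fibroblast genes (right) as line means, with GS in blue, Oct4 mGS in red, a symbol for each line, the range of the 9 lines of the other induced routes as grey bars, and the background level dashed. Oct4 mGS 3 (red triangles) lies above lines 1 and 2 for Kdm5d, Eif2s3y, Uty, Zfy1 and Zfy2 and below them for the fibroblast genes, and GS 1 (blue circles) lies above GS 2 and 3 for the fibroblast genes.

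Among GS lines 3558 genes differed (17.8% of 19938), and GS 1 was the highest line in 1741 and the lowest in 1625. Without a culture of GS 1 the number was 764 or 778, without culture 2 of GS 3 it was 2231, and with a floor at background 2127. In the feeder list 22 of 25 differed, and GS 1 was the highest in all 22, with a median of 1.55 against the mean of GS 2 and 3. Postn, a matrix gene of fibroblasts, read 2423, 259 and 161 (adjusted p = 0.00018) and the secreted matrix gene Ccn1 1545, 119.7 and 103. Ptgs2, the inducible cyclooxygenase gene (2679, 204 and 196), the chemokine gene Ccl7 (2006, 182 and 161) and the cadherin gene Cdh11 (1209, 169 and 135) were likewise highest in GS 1. In contrast the potassium channel gene Kcnc2 read 138, 1258 and 2415 (adjusted p = 6.1e-05). For Ccn1, Postn, Ptgs2, Ccl7 and Cdh11, GS 1 lay above Oct4 mGS 3. The difference of Ccn1 between Oct4 mGS and GS was 3.02 ± 0.67 (adjusted p = 0.0012), larger without GS 1 (4.29, adjusted p = 2.4e-08) and smaller without GS 3 (2.34). Cdh11 did not pass (2.77 ± 1.17, adjusted p = 0.065) but did without GS 1 (3.77, adjusted p = 0.02). Of 23 spermatogonial regulators 12 differed among GS lines, and GS 1 was the lowest in 10.

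The Oct4 route was last set against the mean of the other 3 induced routes, with 9 lines. Only 212 genes differed (1.06% of 19938), 162 higher (76.4%) and 50 lower in the Oct4 route. With arrays centred on their medians the split was 36 and 30 (54.5% higher), with quantile normalization 90 and 66 (57.7% higher), and without culture 1 of Oct4 mGS 1 it was 59 and 49 (54.6% higher), so the excess of higher genes was not kept. Without Oct4 mGS 1, 4 genes passed, without Oct4 mGS 2, 16, and without Oct4 mGS 3, 1008. Left out singly, Dnmt mGS 1 left 88, Dmrt mGS 1 128, Dmrt mGS 3 81, Sox2 mGS 1 66 and Sox2 mGS 3 39, and with Oct4 mGS 1 and 2 averaged as 1 line 5 passed. None of the 25 naive genes and none of the 11 core genes passed. With 1.06% of all genes called, counts in lists this small cannot show whether the routes differ. The median difference from the other routes was −0.66 over the naive list and −0.06 over the core list. It was 0.49 over the primed list, of which none passed either, and 0.05 over all genes. These medians were not tested.

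The genes named here passed with lines that did not overlap, unless stated. Bhlhe41, a clock-related repressor gene, read 506, 444 and 607 against 64.8 to 437 in the 9 lines (1.44 ± 0.34, adjusted p = 0.046), and its GS level was 724. The sterol dehydrogenase gene Nsdhl read 2693, 2790.0 and 2675 against 1086 to 2566 (0.70 ± 0.11, adjusted p = 0.0085) and the sterol oxidase gene Msmo1 2074, 2206 and 2192 against 835 to 1863 (0.87 ± 0.17, adjusted p = 0.028). For these 3 genes the lines of Oct4 mGS and GS overlapped, and none passed against GS (adjusted p = 0.36, 0.51 and 0.60). The dehydrogenase gene Aldh9a1 (0.71 ± 0.14), the NDRG family gene Ndrg3 (0.63 ± 0.09), the zinc finger gene Zik1 (0.62 ± 0.13) and the histone gene H3c15 (0.95 ± 0.20) were also higher, as was Mir19b-2 (0.80 ± 0.14), whose mean in the other routes was below background.

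Lower in the Oct4 route were Itgb3, an integrin subunit gene, at 149, 122 and 142 against 159.7 to 359 (−0.88 ± 0.13, adjusted p = 0.0051, with the Oct4 mGS mean below background), Gstp1, a glutathione transferase gene, at 782, 671 and 550.1 against 809 to 1828 (−0.84 ± 0.15, adjusted p = 0.017), and the carrier gene Slc25a40 (−0.68 ± 0.15). Akap11 (−0.51 ± 0.12) and Slc10a7 (−0.40 ± 0.09) differed by less. Over all 19938 genes, 50 were lower and 162 higher. In the germline lists, 3 of 18 methylation-silenced germline genes were lower, as were 1 of 21 piRNA genes and 1 of 30 meiotic genes. So were 1 of 19 X-linked germ cell genes and 1 of 23 spermatogonial regulators, and 1 spermatogonial regulator was higher. These lists share members. Those named were Slc25a31 (−1.29 ± 0.26), Sycp1 (−1.03 ± 0.20) and Asz1 (−1.27 ± 0.28). Lines overlapped for Slc25a31 and Sycp1, the Oct4 mGS means of all 3 were below background, and that of Asz1 was below it in the other routes as well, so no fold is read from it. Ldha was higher (0.43 ± 0.08) and Cdkn2a lower (−0.56 ± 0.13), both with lines that overlapped, and the complex III gene Uqcrc2 was higher (0.27 ± 0.06). Slc25a40 lay between the other routes and GS, since it rose over GS (1.48 ± 0.18). All 19 of these calls, Nsdhl and Msmo1 included, were lost with Oct4 mGS 1 and 2 averaged as 1 line or with the line number as a replicate block, 18 with only the groups compared (all but that of Ndrg3), and all but that of Itgb3 without Oct4 mGS 1.

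**Figure D5:**
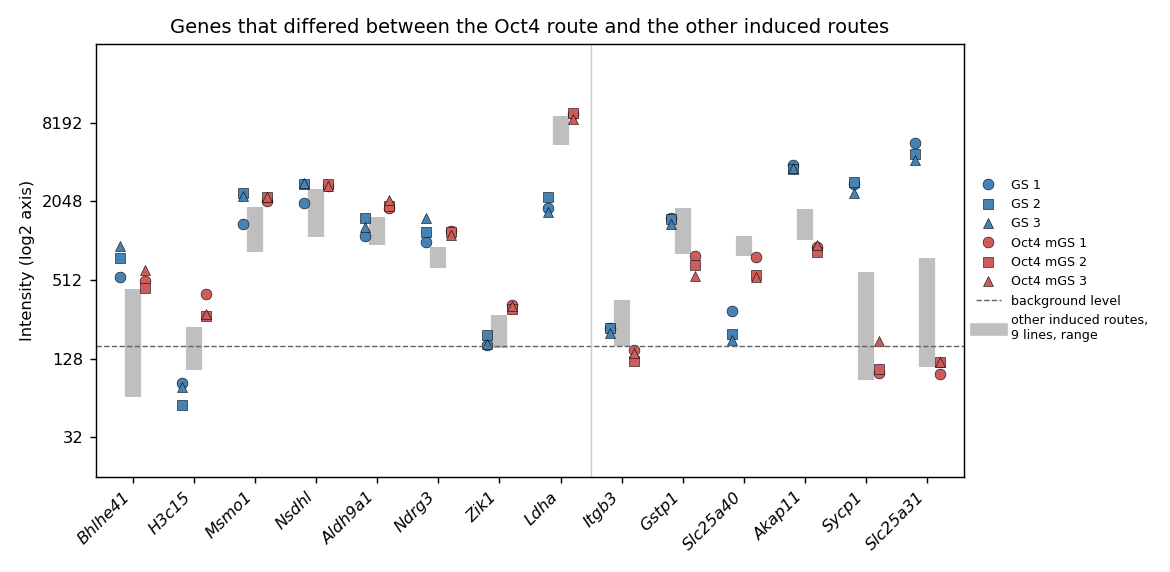
Intensity (log2 axis) of 14 genes that differed between the Oct4 route and the other induced routes, higher on the left of the vertical line and lower on the right, as line means with GS in blue, Oct4 mGS in red, the range of the 9 other lines as grey bars, and the background level dashed. The red points lie outside the grey bars except for Ldha, Sycp1 and Slc25a31, and for Bhlhe41, Msmo1, Nsdhl and Ndrg3 the blue GS points lie near the red ones.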

How the data were processed

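Expression was measured on whole-transcript mouse arrays. The authors deposited 1 table of normalized linear intensities (16.0 to 27420 over 46 arrays). The sources used here do not give its normalization, so log2 was taken with no further scaling. Of 28856 probe sets, 21789 were paired with 1 gene symbol in the platform annotation, 1621 with several and 5446 were not listed. Where a gene had several (999 genes), the probe set with the highest mean was used, which left 19938 genes. The 2 cultures of a line were averaged, and 23 line means of 8 groups were fitted with limma 3.58.1 in R 4.3.3 (lmFit, eBayes), with Benjamini-Hochberg adjustment at 0.05. Lines within a group were compared by limma's moderated F test over cultures. The scripts were tested on simulated data. Nothing says whether the lines came from separate animals. The p-values of comparisons between groups measure the spread between lines pooled over all 8 groups, not that of the compared lines alone. The number of arrays limits the precision.

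Named genes are 5 set genes and the 12 highest and 12 lowest of the comparison with GS. To these were added the 8 highest and up to 8 lowest of the comparison with the other routes, where fewer than 8 lowest qualified. In both comparisons the brighter group had to be above background and the lines not to overlap. Each list gave its defining members, its 3 highest and 3 lowest called members and those against its direction. Last came the 6 genes with the widest range among the lines of each group. Of all these, those that serve the text were used. The Y-linked list, and Uqcrc2, Ldha, Cdkn2a, Asz1, Slc25a31 and Sycp1 in the comparison of routes, were chosen after their values were seen. The members and lists were chosen with earlier results of these data known. Promoter windows are the 250 bases before each RefSeq start (GRCm38.p6), matched by symbol for 15614 genes and searched on both strands. Alternatives were quantile normalization, median centring, dropping the 40% dimmest genes, a floor at background, the mean of probe sets, the 2 groups alone, arrays as samples, line as a random block, a variance trend, line or culture number as a block, and leaving out each line. Merging close lines was added after seeing the data.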

Additional observations from a re-analysis of the deposited data

Results flagged for a closer look

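Among 386 sets of 6 arrays (the named genes and the array median, in Oct4 mGS or GS), 16 had an array far from the other 5 by Dixon's ratio of its gap to the range, with a limit of 0.625. With 6 independent values chance flags about 1 in 20 groups. The 2 cultures of a line are not independent, so that rate need not hold here. Of the 16, 10 concerned culture 1 of Oct4 mGS 1: its array median (0.724), Asz1 (0.784), Dnmt1 (0.758), Foxf1 (0.645), Kdm4c (0.728), Mageb4 (0.692), Pou5f1 (0.735), Sox17 (0.791), Sycp3 (0.695) and Tex13b (0.683). Culture 2 of the same line stood apart for Gata4 (0.736). In GS, culture 2 of line 1 stood apart for Cbx7 (0.637) and Sox17 (0.633), culture 1 of line 1 for Otx2 (0.686), culture 1 of line 3 for Fgf5 (0.651) and culture 2 of line 3 for Foxh1 (0.738). Asz1, Mageb4, Tex13b, Sox17 and Sycp3 had Oct4 mGS means below background, and Fgf5, Foxh1, Otx2 and Sox17 had GS means below it.

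The Oct4 route differed from the other induced routes, by limma's test of that difference, for 19 named genes. It was higher for Bhlhe41 (1.44 on the log2 scale), H3c15 (0.95), Msmo1 (0.87), Mir19b-2 (0.80), Aldh9a1 (0.71), Nsdhl (0.70), Ndrg3 (0.63), Zik1 (0.62), Ldha (0.43) and Uqcrc2 (0.27). It was lower for Slc25a31 (−1.29), Asz1 (−1.27), Sycp1 (−1.03), Itgb3 (−0.88), Gstp1 (−0.84), Slc25a40 (−0.68), Cdkn2a (−0.56), Akap11 (−0.51) and Slc10a7 (−0.40). All 3 Oct4 mGS lines lay outside the range of the 9 other lines for 15 of the 19, and not for Slc25a31, Sycp1, Ldha and Cdkn2a.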

How the results depend on the processing

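The number of genes that differed between Oct4 mGS and GS stayed within 1.5 times of 8545 under every alternative, from 6390 with the line number as a replicate block to 11168 with arrays as independent samples, and from 7235 to 8735 with each line left out in turn. Lines with the same number deviated from their group means with correlations of 0.20, −0.07 and 0.15, so the numbers were not taken to pair the lines. Of 150 named genes called in this comparison, 17 lost the call with close lines merged, 13 with only the 2 groups and 13 with the line number as a replicate block, while none changed sign in these settings. Among named genes that had not passed, 1, 5 and 7 gained a call in the same settings. The 5 with only the 2 groups were Dnmt1, Epcam, Col1a1, Myc and Lin28a. The 212 genes between the Oct4 route and the other routes depended on the processing. They became 66 with median centring, 5 with only the groups compared, 3365 with arrays as independent samples, 919 with line as a random block, 910 with the culture number as a replicate block, 0 with the line number as a replicate block, 108 without culture 1 of Oct4 mGS 1 and 5 with Oct4 mGS 1 and 2 averaged, and 4 to 1008 with each line left out. With a floor at background, 614 genes differed among Oct4 mGS lines and 2127 among GS lines, and with each culture left out 2259 to 12328 and 764 to 4504. Signal over background limits the fold of genes that were below 161 in 1 group.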
